A study of Mus musculus with 16 samples.

Results

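Visceral fat from female mice carrying a conditional MyD88 deletion labelled as muscle-specific was compared, gene by gene, with visceral fat from Cre-Control females. The comparison used 7 of the 16 libraries in the series. They came from 4 mice labelled Conditional MusMyD88-/- (mice 139, 958, 960 and 29, called knockouts) and 3 mice labelled Cre-Control (mice 131, 137 and 11, called controls). The labels assign 4 mice to each genotype, but the fat library of control mouse 138 was left out; the libraries kept were chosen by the levels of tissue marker genes, which in the library of mouse 138 were those of other tissue. All mice of both genotypes had 5 weeks of wheel running and then 8 days of restricted movement in a small cage, so no group without that sequence enters the comparison. The red part of the gastrocnemius muscle was sequenced from the same 8 mice. Strain, age, the promoter driving Cre and the exons removed are details the sources used here do not give. The design addressed whether fat differs with the genotype when the gene is targeted in another tissue.

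MyD88 is an adaptor protein that Toll-like receptors and receptors of the interleukin-1 family bind through their intracellular domains after a microbial product, a danger signal or a cytokine engages them. It gathers kinases of the IRAK family and the ubiquitin ligase TRAF6 and so leads to NF-kB activity and inflammatory gene expression. Visceral fat holds lipid-storing adipocytes beside progenitors, vessels, macrophages, lymphocytes and a mesothelial lining, so RNA of the whole tissue is a mixture of these cells. Adipocytes store triglyceride, release fatty acids by lipolysis and secrete hormones such as leptin and adiponectin.

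Total counts per library were 13416091 to 19114782 in the 7 fat libraries, 13242243 in the left-out one and 15203806 to 21747345 in muscle. Levels are CPM, the count of a gene per 10 to the sixth counts, on library sizes scaled by the trimmed mean of M values, except where the left-out library is described. The marker values on which the 7 libraries were selected are given as CPM of the total count, without scaling or test. The library of control 138 had 605 CPM of Adipoq, which encodes adiponectin, where the other 7 had 2076 to 3722 CPM. It had 539 CPM of Upk1a, a uroplakin of the bladder lining, where the highest of the others was 2.40 CPM. It had 10210 CPM of Myh11, smooth muscle myosin, where the others had 108.00 to 383 CPM. The sum over 12 adipocyte markers was 9185 CPM in that library and 35204 to 41421 CPM in the others.

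**Figure D1:**
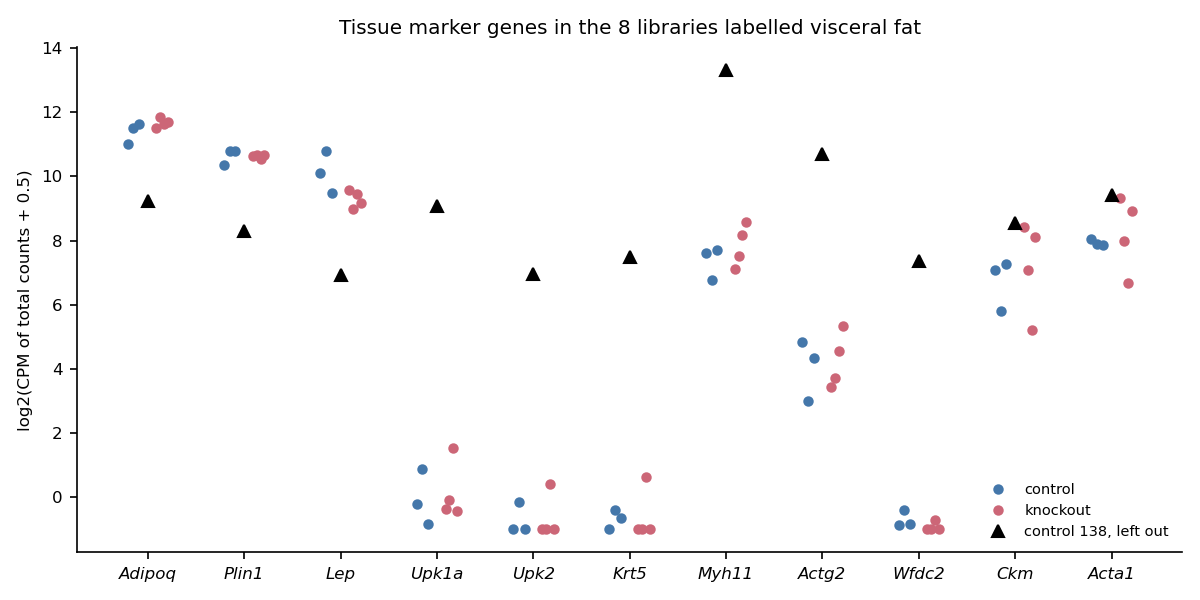
Levels of 11 tissue marker genes on the vertical axis, as log2 of CPM of the total count plus 0.5, in the 8 libraries labelled visceral fat; circles are the 3 controls and 4 knockouts used, and black triangles are control 138. For Upk1a the left-out library had 539 CPM and no other library exceeded 2.40 CPM, while for Adipoq it was the lowest at 605 CPM.

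The targeted gene, Myd88 (ENSMUSG00000032508, GRCm38 chromosome 9, 119335934 to 119341411), was at 17.2, 14.2 and 16.1 CPM in controls 131, 137 and 11. It was at 15.2, 16.8, 14.2 and 14.4 CPM in knockouts 139, 958, 960 and 29. The groups overlapped, with means of 15.8 ± 1.5 CPM (SD, n = 3) and 15.2 ± 1.21 CPM (SD, n = 4). The log2 fold change of knockout over control was -0.07 with a standard error (SE) of 0.10 (edgeR, Benjamini-Hochberg adjusted p = 0.781). In muscle of the same mice, where 5.04% of the genes tested had an unadjusted p under 0.05, Myd88 was at 2.17, 2.11, 3.43 and 2.95 CPM in controls 131, 137, 138 and 11 and at 2.13, 2.02, 1.66 and 1.93 CPM in knockouts 139, 958, 960 and 29. The muscle log2 fold change was -0.47 and did not pass the test (edgeR adjusted p = 0.949). A count over the whole gene does not resolve a deleted exon, and Slc22a14 on the same strand and Acaa1a on the opposite one overlap the gene, so these values do not check the genotype labels.

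Of 16579 genes tested in fat, 6 changed at an edgeR adjusted p under 0.05, which is 0.0362% of the genes. Of these, 1 rose (0.00603%) and 5 fell (0.0302%). Among these 6, 9930111J21Rik2, Tgtp1 and Gbp9, belong to families of GTPases that interferons induce, which guard cells against intracellular microbes. The others were Stt3b, which encodes the catalytic part of an oligosaccharyltransferase complex that attaches N-linked sugars to proteins in the endoplasmic reticulum, Fam213b, which encodes a prostamide and prostaglandin F synthase, and Wfdc21, a small protein with a whey acidic protein domain. These p-values measure only the spread between these mice.

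The gene 9930111J21Rik2 (ENSMUSG00000069892, chromosome 11, 49015874 to 49051242) was at 14.5, 16.7 and 18.1 CPM in controls 131, 137 and 11. In knockouts 139, 958, 960 and 29 it was at 0.485, 0.0707, 0.628 and 0.598 CPM, so every knockout lay far under every control. It fell by 5.14 on the log2 scale (SE 0.32, edgeR adjusted p = 0.00126). Raw counts were 780 over the 3 controls and 29 over the 4 knockouts, a depth-corrected ratio of 34.0 with a 95% interval of 23.5 to 51.2 that covers counting error only. In muscle of the same mice it was at 3.08 to 4.98 CPM in the 4 controls and at 0 to 0.0591 CPM in the 4 knockouts, a log2 fold change of -6.61 (edgeR adjusted p = 5.29e-07). The fold changes of fat and muscle did not pass the test of their difference (interaction term, edgeR adjusted p = 0.456).

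Tgtp1 (ENSMUSG00000078922, chromosome 11, 48985327 to 48994172), a T cell-specific guanine nucleotide triphosphate-binding protein, lies beside it on the chromosome. It was at 2.18, 1.76 and 2.73 CPM in controls 131, 137 and 11 and at 0, 0.0707, 0 and 0.179 CPM in knockouts 139, 958, 960 and 29. It fell by 4.96 on the log2 scale (SE 0.59, edgeR adjusted p = 0.0363). Its counts summed to 106 over the controls and 4 over the knockouts, a depth-corrected ratio of 33.5 with a counting interval of 12.7 to 125. In muscle its log2 fold change was -6.34 (edgeR adjusted p = 0.00278). These 2 genes made up all the calls in muscle, 0.0141% of 14183 genes tested there.

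Both genes have near-identical neighbours, so the split of reads between copies is uncertain. In Tgtp1 transcripts, 81.1% of all stretches of 51 bases also occur in another gene, 79.2% in Tgtp2, and for 9930111J21Rik2 the shares were 58.8% and 55.9%, the latter in 9930111J21Rik1. The copies, chosen after their values were seen, did not pass the test. Tgtp2 was at 4.12, 3.25 and 5.20 CPM in controls 131, 137 and 11 and at 10.4, 6.30, 3.94 and 8.49 CPM in knockouts 139, 958, 960 and 29 (log2 fold change 0.79, edgeR adjusted p = 0.274). The other copy, 9930111J21Rik1, was at 5.32 to 5.78 CPM among controls and 7.30 to 8.17 among knockouts (log2 fold change 0.48, edgeR adjusted p = 0.170). Both copies had higher means in knockout fat, the opposite sign to their called partners. In muscle the log2 fold changes of Tgtp2 and 9930111J21Rik1 were 0.08 and 0.05 (edgeR adjusted p = 0.992 for both). A shift of reads between copies was not tested. Olfr56, on the opposite strand, spans both called genes, and Gm12185 overlaps Tgtp1 on the same strand.

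Promoters of this family are shown by that of Tgtp1 because its letters hold the elements through which interferons are known to act. The line gives 250 bases before to 50 after the start, from RefSeq, at chr11:48992197-48992496 on the minus strand of GRCm38.p6, 5′ to 3′. Capitals mark TTCNNNGAA, the gamma-activated site, and the core of the interferon-stimulated response element, which is GAAA, any 2 bases and GAAA again. Both were searched on both strands.
Tgtp1: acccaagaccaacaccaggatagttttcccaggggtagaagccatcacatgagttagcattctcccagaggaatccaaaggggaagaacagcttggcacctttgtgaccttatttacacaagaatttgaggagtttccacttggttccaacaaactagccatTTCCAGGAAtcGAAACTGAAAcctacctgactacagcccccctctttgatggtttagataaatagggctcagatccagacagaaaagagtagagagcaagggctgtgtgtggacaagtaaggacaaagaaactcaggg
Each of these motifs occurs once, close together. The response element core was found in 12 of the 14 listed GTPase genes with a RefSeq promoter (85.7%) and in 3.99% of the 27025 genes with any. TTCNNNGAA was found in 6 of the 14 (42.9%) and in 9.55% of all genes. Counted by promoter, the shares were 75% and 37.5% of 16 promoters of the family, beside 3.44% and 8.3% of all 32851 promoters of that length. A match describes letters and is not evidence of binding.

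Gbp9 (ENSMUSG00000029298, chromosome 5, 105077630 to 105139539), a guanylate-binding protein, moved the other way. It was at 28.7, 29.1 and 24 CPM in controls 131, 137 and 11 and at 54.7, 51.6, 43.1 and 47.1 CPM in knockouts 139, 958, 960 and 29, with no overlap. It rose by 0.85 on the log2 scale (SE 0.10, edgeR adjusted p = 0.0428). In muscle it was at 7.88 to 17.8 CPM among controls and 18.4 to 24.7 among knockouts and did not pass the test (log2 fold change 0.66, edgeR adjusted p = 0.907). Gbp4 and Gbp8 overlap it on the same strand and had log2 fold changes of 0.59 and 0.65 without passing the test (edgeR adjusted p = 0.238 and 0.317).

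Among all 20 interferon-inducible GTPases, 13 had a positive and 7 a negative log2 fold change, with a median of 0.20. Over all genes tested 8552 were positive and 8027 negative, with a median of 0.0087. Unadjusted p was under 0.05 for 8 of the 20, where 16.6% of all genes reached that level: 5 members were higher in knockouts (7.85% of all genes) and 3 lower (8.72%). The groups did not overlap for 2 members higher and 3 lower in knockouts, beside 7.72% and 8.21% of all genes. The count of 5 higher members was 3 without control 131 or control 137 and 8 without knockout 960. In those settings 8.98%, 11.7% and 13.1% of all genes had an unadjusted p under 0.05 in either direction. Gbp10 was at 2.58, 2.77 and 5.59 CPM in controls 131, 137 and 11 and at 1.20 to 1.84 CPM in knockouts, without overlap (log2 fold change -1.21, edgeR adjusted p = 0.167), and shares 83.8% of its 51-base stretches with other genes. The family therefore held both signs.

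Stt3b (ENSMUSG00000032437, chromosome 9, 115242581 to 115310421) was at 433, 426 and 408 CPM in controls 131, 137 and 11. It was at 223, 222, 246 and 214 CPM in knockouts 139, 958, 960 and 29, so both groups were tight and far apart. It fell by 0.90 on the log2 scale (SE 0.08, edgeR adjusted p = 0.00459), from 422 ± 13 CPM (SD, n = 3) to 226 ± 13.7 CPM (SD, n = 4). In muscle it was at 73.8 to 89.6 CPM among controls and 66.3 to 70.5 among knockouts (log2 fold change -0.25, edgeR adjusted p = 0.907). All 12 oligosaccharyltransferase genes had a negative log2 fold change in fat, with a median of -0.12. Stt3b was the called one. With Stt3b, 2 of the 12 had an unadjusted p under 0.05 (16.7%), where 16.6% of all genes did in either direction and 8.72% with lower levels.

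Fam213b (ENSMUSG00000029059, chromosome 4, 154895504 to 154899135) was at 58.0, 63.4 and 55.1 CPM in controls 131, 137 and 11 and at 30.6, 34.9, 34.9 and 37.1 CPM in knockouts 139, 958, 960 and 29. It fell by 0.78 on the log2 scale (SE 0.08, edgeR adjusted p = 0.0270), and its muscle log2 fold change was 0.01 (edgeR adjusted p = 0.998). Wfdc21 (ENSMUSG00000051748, chromosome 11, 83746940 to 83752642) was at 23.6, 26.4 and 22 CPM in controls and at 12, 11.4, 9.76 and 13.5 CPM in knockouts. It fell by 1.04 (SE 0.12, edgeR adjusted p = 0.0357) and reached at most 0.118 CPM in any muscle library, too low to test. Neither gene shares a 51-base stretch with another gene.

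**Figure D2:**
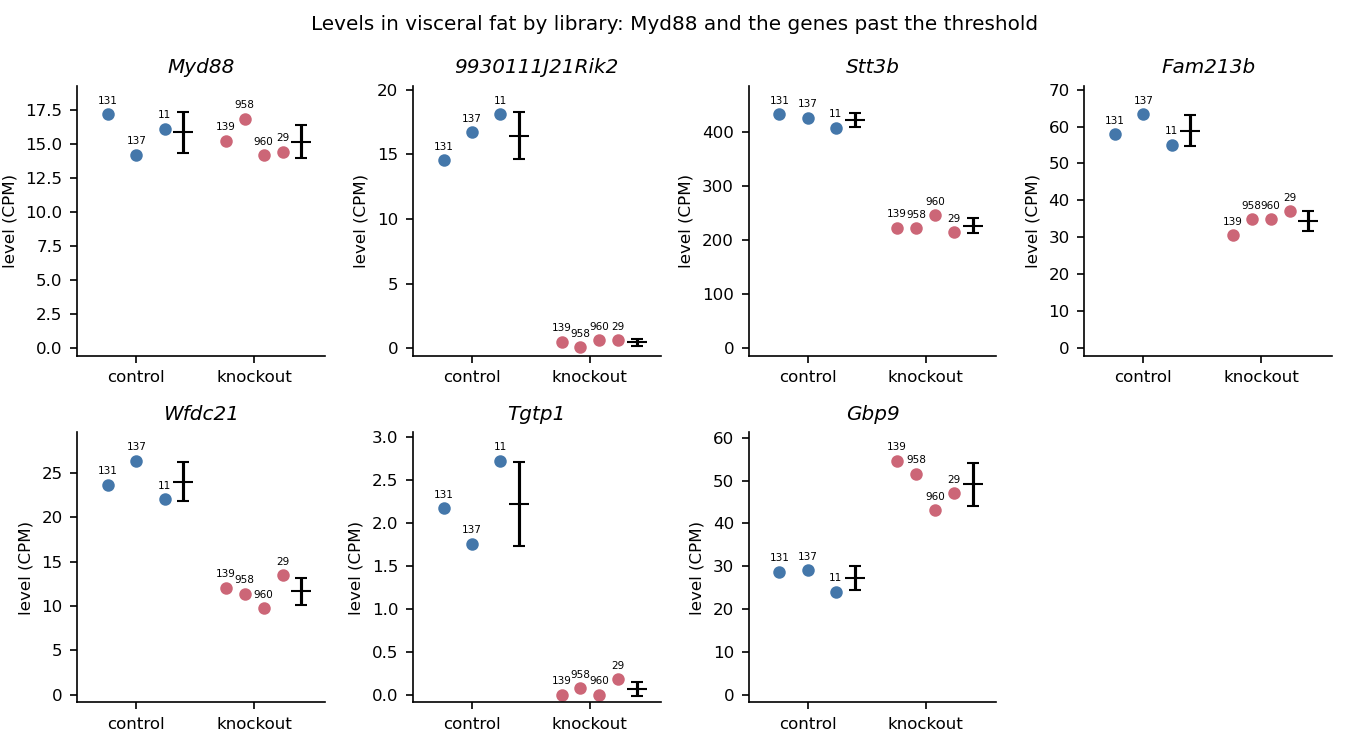
Level in CPM on the vertical axis (linear, from about 0) of Myd88 and the 6 genes past the threshold in each of 3 control and 4 knockout fat libraries, with the mouse number above each point and the mean ± SD beside the points. Knockouts lie under all controls for 5 genes and above them for Gbp9 (43.1 to 54.7 against 24 to 29.1 CPM), while for Myd88 the groups overlap.

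The calls depended on single libraries. With the library of control 138 added only 9930111J21Rik2 passed, 0.00613% of 16323 genes tested, and with control 131 left out it was again the only one. With control 137, knockout 139 or knockout 958 left out, it passed together with Stt3b. Without control 11 the count was 29, and without knockout 960 it was 10. DESeq2 called 348 genes (2.1%), including 5 of the 6, and gave no adjusted p for Tgtp1.

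**Figure D3:**
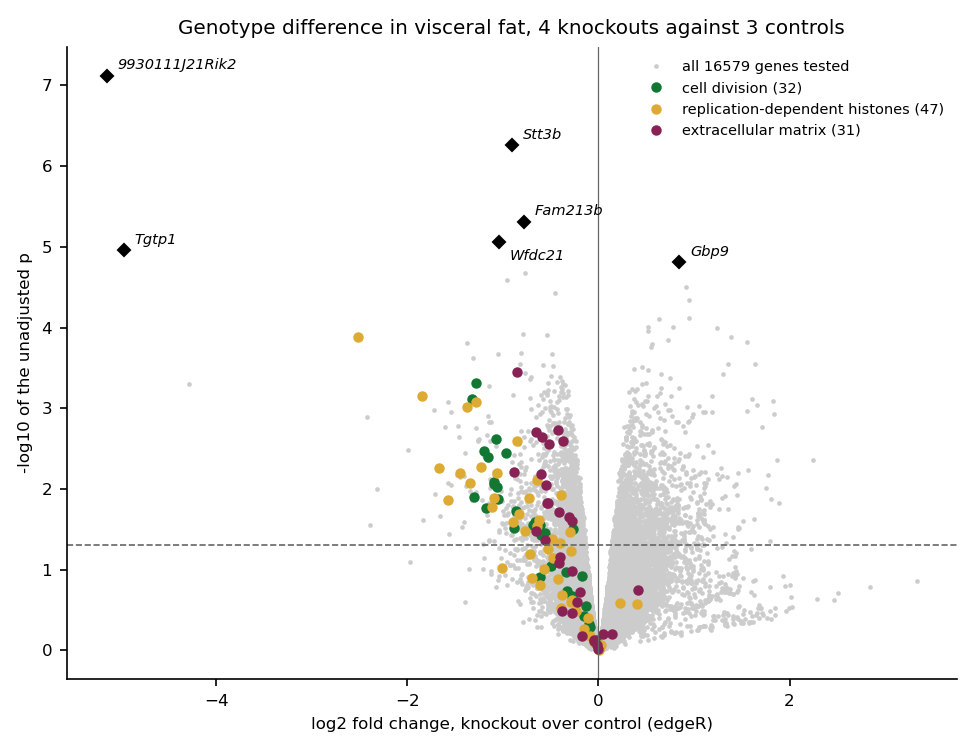
Log2 fold change of knockout over control on the horizontal axis against minus log10 of the unadjusted edgeR significance value for all 16579 genes tested in fat, with the 6 called genes as black diamonds and 3 gene lists in colour; the dashed line is at 0.05. The coloured points lie mostly left of 0, with median log2 fold changes of -0.64 for cell division, -0.61 for histones and -0.38 for extracellular matrix.

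The genes next in order of p included several regulators, none past the threshold. Tsc22d3, which encodes the glucocorticoid-induced leucine zipper, was at 173, 209 and 168 CPM in controls 131, 137 and 11 and at 114, 94.9, 113 and 111 CPM in knockouts 139, 958, 960 and 29 (log2 fold change -0.77, edgeR adjusted p = 0.0505). Ralgapa2, a subunit of the complex that switches off Ral GTPases, was at 353 to 406 CPM among controls and 164 to 242 among knockouts (-0.96, edgeR adjusted p = 0.0532). Gulp1, an adaptor for engulfing dying cells, was at 29.3 to 39.6 CPM among controls and 61.1 to 77.2 among knockouts (0.92, edgeR adjusted p = 0.0581). Each of these had groups that did not overlap.

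Ube2g2, a ubiquitin-conjugating enzyme of endoplasmic reticulum quality control, differed little in size but was tight, at 39.6 to 41.8 CPM among controls and 29.5 to 30.4 among knockouts (-0.46, edgeR adjusted p = 0.0610). Dusp4, a phosphatase that inactivates MAP kinases, was at 25.6, 27.8 and 27.0 CPM in controls and 42.4, 39.4, 45.2 and 56.6 CPM in knockouts (0.78, edgeR adjusted p = 0.105). Ighm, the heavy chain of immunoglobulin M, was at 118, 160 and 160 CPM in controls and 71.4, 88.7, 84.6 and 92.0 CPM in knockouts (-0.79, edgeR adjusted p = 0.105). Uhrf1, which helps copy DNA methylation after replication, was at 4.03 to 6.07 CPM among controls and 1.49 to 2.35 among knockouts (-1.37, edgeR adjusted p = 0.105). Of the other genes in this set, AU020206 (0.95), Coro6 (0.94), St3gal6 (0.64), Jam2 (0.52), Camk2b (1.24), Filip1 (0.52), Grhl1 (0.72), Slc26a10 (1.55) and Ikzf2 (0.56) had positive log2 fold changes.

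All 32 genes of a cell division list, which covers DNA replication, chromosome segregation and cytokinesis, had lower fitted levels in knockouts, with a median log2 fold change of -0.64. None passed the threshold. Unadjusted p was under 0.05 for 21 of the 32, where 8.72% of all genes were lower at that level, and the groups did not overlap for 11, where 8.21% of all genes were lower without overlap. DESeq2 called 5 of the 32 lower, beside 1.25% of all genes. In bulk tissue fewer cells of a type and less RNA per cell cannot be told apart.

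Cdk1, the kinase that drives entry into mitosis, was at 5.10, 3.65 and 3.05 CPM in controls 131, 137 and 11. In knockouts 139, 958, 960 and 29 it was at 2.08, 1.41, 1.31 and 1.67 CPM, all under the lowest control (log2 fold change -1.28, SE 0.25, edgeR adjusted p = 0.140). Mki67, the Ki-67 antigen of cycling cells, was at 41.3, 30.9 and 24.3 CPM in controls and 20.6, 15.9, 14.1 and 10.8 CPM in knockouts (-1.07, SE 0.24, edgeR adjusted p = 0.157). Top2a, the topoisomerase that untangles replicated DNA, was at 25.1, 14.7 and 15.7 CPM in controls and 12.3, 7.07, 5.65 and 7.42 CPM in knockouts (-1.20, SE 0.29, edgeR adjusted p = 0.170). Prc1, a protein of the spindle midzone, was at 4.81 to 7.27 CPM among controls and 1.67 to 3.39 among knockouts (-1.33, SE 0.27, edgeR adjusted p = 0.140). Control 131 was the highest library for all 4 genes.

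The summed level of the list was 312, 244 and 247 CPM in controls 131, 137 and 11 and 212, 198, 171 and 184 CPM in knockouts 139, 958, 960 and 29. Without control 131, 9 members had an unadjusted p under 0.05 with lower levels, where 4.68% of all genes did, and the median was -0.43. With control 138 added the count was 15, where 4.10% of all genes were lower at that level (7.99% in either direction), and the median was -0.55. In muscle 16 members were tested, 9 of them with a positive log2 fold change, and the median was 0.07.

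The promoters of Cdk1 and Top2a are shown as examples from this list. They are RefSeq sequences of GRCm38.p6, 5′ to 3′, from 250 bases before to 50 after the start, at chr10:69352863-69353162 and chr11:99024140-99024439, both on the minus strand. Capitals mark CCAAT, the CCAAT box, and TTTGAA, the cell cycle homology region, each on either strand, so that ATTGG and TTCAAA are the same motifs read from the other strand.
Cdk1: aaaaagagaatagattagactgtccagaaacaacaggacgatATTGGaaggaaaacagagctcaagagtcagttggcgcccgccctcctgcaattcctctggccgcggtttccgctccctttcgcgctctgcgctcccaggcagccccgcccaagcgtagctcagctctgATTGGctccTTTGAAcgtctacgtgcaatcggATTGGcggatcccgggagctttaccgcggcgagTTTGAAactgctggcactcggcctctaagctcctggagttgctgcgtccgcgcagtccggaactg
Top2a: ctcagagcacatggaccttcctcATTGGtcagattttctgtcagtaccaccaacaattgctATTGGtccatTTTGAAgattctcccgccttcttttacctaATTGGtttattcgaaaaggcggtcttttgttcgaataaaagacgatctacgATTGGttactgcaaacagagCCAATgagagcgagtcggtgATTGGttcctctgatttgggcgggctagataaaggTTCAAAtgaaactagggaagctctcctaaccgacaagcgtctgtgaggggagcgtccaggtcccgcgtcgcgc
CCAAT occurred in 23 of the 29 listed genes with a RefSeq promoter (79.3%) and in 41.1% of the 27025 genes with any. TTTGAA occurred in 12 of the 29 (41.4%) and in 20.2% of all genes. Among all promoters, CCAAT was in 37.4% and TTTGAA in 17.9%. TTTGAA was not particular to this list, as it was in 46.2% of the replication-dependent histone genes and 35.7% of the listed GTPase genes with a RefSeq promoter. Here too a match describes letters only.

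Replication-dependent histones, whose messenger RNAs are made while DNA is copied, had the same sign. Of 70 listed genes, 47 passed the filter on low counts and 43 of those had a negative log2 fold change, with a median of -0.61. None passed the threshold. Lower levels at an unadjusted p under 0.05 were found for 24 (8.72% of all genes), without overlap of the groups for 19 (8.21%) and with a DESeq2 call for 3 (1.25%). The summed level was 405, 345 and 415 CPM in controls 131, 137 and 11 and 327, 328, 264 and 321 CPM in knockouts 139, 958, 960 and 29. Without control 131, 13 members were lower at that level, where 4.68% of all genes were.

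Hist1h2an, an H2A gene, was at 0.973, 0.879 and 0.975 CPM in controls 131, 137 and 11 and at 0.208, 0.0707, 0.228 and 0.120 CPM in knockouts 139, 958, 960 and 29 (log2 fold change -2.51, SE 0.40, edgeR adjusted p = 0.105). Hist1h2ai, another H2A gene, was at 0.744 to 1.49 CPM among controls and 0.228 to 0.424 among knockouts (-1.84). Their assignment is uncertain, because 85.7% and 90.1% of their 51-base stretches occur in other genes. Hist1h2bb was at 3.65 to 5.15 CPM among controls and 1.20 to 2.51 among knockouts (-1.28), and Hist1h3b was at 1.76 to 3.72 CPM and 0.913 to 1.32 CPM (-1.37), both with edgeR adjusted p = 0.140.

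The promoter of Hist1h2an is shown because it has the layout common in this list, at chr13:21787199-21787498 on the minus strand of GRCm38.p6 from RefSeq, 5′ to 3′. Capitals mark CCAAT or its reverse ATTGG and TATAAA, the TATA box.
Hist1h2an: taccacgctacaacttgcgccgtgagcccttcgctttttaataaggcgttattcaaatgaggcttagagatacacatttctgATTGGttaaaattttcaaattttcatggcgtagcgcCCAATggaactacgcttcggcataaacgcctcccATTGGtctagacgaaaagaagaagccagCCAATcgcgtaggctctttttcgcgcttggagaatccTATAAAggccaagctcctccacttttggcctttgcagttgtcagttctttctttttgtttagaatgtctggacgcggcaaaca
CCAAT was in 56 of the 65 histone genes with a RefSeq promoter (86.2%). TATAAA was in 37 of the 65 (56.9%) and in 15.7% of all genes. In the cell division list, TATAAA was in 0 of the 29.

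Genes of the extracellular matrix, the collagens and glycoproteins that fibroblasts and adipocytes lay down around fat cells, were lower in knockouts for 28 of 31 members, with a median log2 fold change of -0.38. None passed the edgeR threshold. Lower levels at an unadjusted p under 0.05 were found for 16 (8.72% of all genes), without overlap for 9 (8.21%) and with a DESeq2 call for 9 (1.25%). The summed level was 18708, 18639 and 17965 CPM in controls 131, 137 and 11 and 15506, 14280, 11629 and 14031 CPM in knockouts 139, 958, 960 and 29, without overlap.

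Col5a3, a chain of type V collagen, was at 680.2, 618 and 441 CPM in controls 131, 137 and 11 and at 382, 292, 309.7 and 301.5 CPM in knockouts 139, 958, 960 and 29 (log2 fold change -0.85, SE 0.15, edgeR adjusted p = 0.140). Col6a1 and Col6a2 encode chains of type VI collagen, which wraps adipocytes. Col6a1 was at 856, 897 and 718 CPM in controls and 668, 559, 440 and 527 CPM in knockouts (-0.59, edgeR adjusted p = 0.157). Col6a2 was at 615, 642 and 521 CPM in controls and 489, 355, 309 and 357 CPM in knockouts (-0.65, edgeR adjusted p = 0.15). Tnc, tenascin C of remodelling tissue, was at 17.6 to 21.5 CPM among controls and 13.8 to 15.9 among knockouts (-0.42, edgeR adjusted p = 0.15). For each of these 4 genes every knockout lay under every control.

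Without control 137 the count of matrix genes with an unadjusted p under 0.05 was 10, where 11.7% of all genes reached that level in either direction. With control 138 added it was 12, where 4.10% of all genes were lower at that level. In muscle 29 of the 31 had a positive log2 fold change, with a median of 0.22 and none past the threshold. Fibro-adipogenic progenitor markers, which include fibroblast genes, summed to 2317 to 3078 CPM among controls and 1989 to 3004 among knockouts. Of their 12 members 9 had a negative log2 fold change, 4 of these with an unadjusted p under 0.05 (8.72% of all genes), and none was at 0. Dcn and Col15a1 belong to both the progenitor and the matrix list, so the lists are not separate readouts. The part of the progenitor markers in the matrix values was not tested.

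Enzymes that process matrix had a median nearer 0. Of 28 tested genes for proteases, their inhibitors and crosslinking enzymes, 20 had a negative log2 fold change, 8 of these with an unadjusted p under 0.05 (8.72% of all genes), and the median was -0.14. The count of 8 was 5 without control 131, where 8.98% of all genes reached that level in either direction. It was 3 with control 138 added, where 4.10% of all genes were lower at that level. Plod3 and Plod1, which hydroxylate lysines of collagen, were at 122 to 132 and 86.9 to 94.7 CPM in controls and at 89.2 to 113 and 70.3 to 82.0 CPM in knockouts, without overlap. Lox, lysyl oxidase, was at 156, 161 and 92.4 CPM in controls 131, 137 and 11 and at 71.3 to 97.6 CPM in knockouts, where control 11 lay among the knockouts (-0.67, edgeR adjusted p = 0.198). Adamts2, which trims procollagen, was at 137 to 153 CPM among controls and 91.8 to 124 among knockouts (-0.34, edgeR adjusted p = 0.207).

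**Figure D4:**
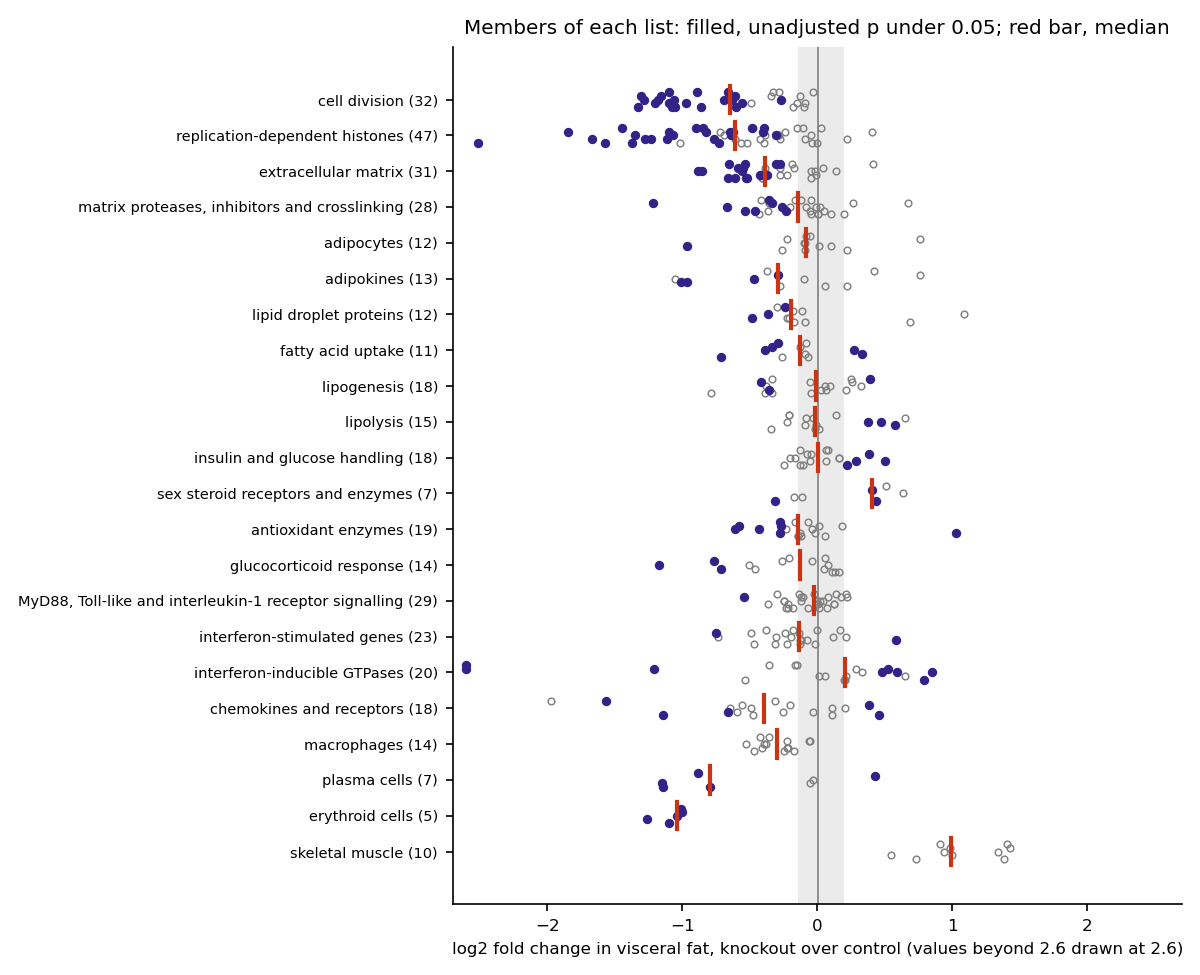
Log2 fold change of knockout over control on the horizontal axis for the tested members of 22 gene lists, with the number tested in brackets; filled points have an unadjusted p under 0.05, red bars are list medians and the grey band spans the quartiles of all genes tested (-0.14 to 0.19). The medians of cell division, histones and extracellular matrix lie left of the band and that of adipocyte markers (-0.09) inside it.

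Summed adipocyte markers overlapped between the genotypes. The sum of 12 adipocyte markers was 38211 to 41175 CPM among controls and 37016 to 40579 among knockouts. The libraries were kept for their levels of such markers, so the sums are a description and carry no test. The median log2 fold change of the 12 was -0.09, with 8 negative. Adipoq was at 2272 to 3099 CPM among controls and 2929 to 3532 among knockouts (log2 fold change 0.22), also given as a description.

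Several hormones that fat secretes had lower means in knockouts, but the adipokine list held both signs. Of 13 tested adipokines 9 had a negative and 4 a positive log2 fold change, among the latter Cfd (0.76, and 0.50 to 1.24 over the alternative settings). The summed adipokine level was 8637 to 12639 CPM among controls and 11288 to 15197 among knockouts, so the groups overlapped. Lep, which encodes the satiety hormone leptin, was at 1200.2, 1809 and 689.8 CPM in controls 131, 137 and 11 and at 783, 483, 718 and 548 CPM in knockouts 139, 958, 960 and 29 (log2 fold change -0.96, SE 0.32, edgeR adjusted p = 0.235). Control 11 lay inside the knockout range. Rarres2, which encodes the chemoattractant adipokine chemerin, was at 107, 128 and 104 CPM in controls and 77.1, 90.7, 66.9 and 93.0 CPM in knockouts, without overlap (-0.47, edgeR adjusted p = 0.174). Apln, which encodes apelin, was at 11.4, 8.79 and 4.03 CPM in controls beside 3.18 to 5.20 in knockouts (-1.01, edgeR adjusted p = 0.218). Angptl4, an inhibitor of lipoprotein lipase, was at 386 to 432 CPM among controls and 287 to 373 among knockouts (-0.29, edgeR adjusted p = 0.228). With control 138 added the sign of Angptl4 turned (0.02). These were the 4 of 13 tested adipokines with an unadjusted p under 0.05, all lower (8.72% of all genes), and the list median was -0.29. Without control 131 they were 2, where 8.98% of all genes reached that level in either direction. With control 138 added 1 was lower, where 4.10% of all genes were.

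No listed gene of lipid droplets or fatty acid uptake passed the threshold. Plin3, a coat protein of lipid droplets, was at 70.9, 71.2 and 77.2 CPM in controls and 55.9, 61.2, 50.1 and 60.0 CPM in knockouts (log2 fold change -0.36, edgeR adjusted p = 0.145). Plin2, another coat protein, was at 263 to 433 CPM among controls and 210.4 to 257 among knockouts (-0.48), and Bscl2, seipin of droplet assembly, was at 184 to 218 CPM and 162 to 183 CPM (-0.24, but 0.08 with control 138 added). The lipid droplet list had 10 of 12 negative log2 fold changes and a median of -0.19. At an unadjusted p under 0.05, 3 were lower (8.72% of all genes), and 1 with control 138 added (4.10%). Slc27a4, a fatty acid transporter, was at 42.4 to 43.2 CPM among controls and 30.6 to 36.4 among knockouts (-0.39, edgeR adjusted p = 0.140). Fabp5, a fatty acid binding protein, was at 234, 155 and 174 CPM in controls and 99.9, 121, 110 and 125 CPM in knockouts (-0.71, edgeR adjusted p = 0.140). The uptake list had a median of -0.13 and held both signs at an unadjusted p under 0.05. Of 11 members 4 were lower at that level (8.72% of all genes) and 2 higher (7.85%), among the latter Lmf1, which folds lipases (0.28). With control 138 added 1 was lower (4.10% of all genes) and 1 higher (3.90%).

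Synthesis and breakdown of triglyceride had medians near 0, which with control 138 added were 0.33 and 0.24. Lipogenesis genes had a median of -0.01, with 9 of 18 positive and 9 negative. At an unadjusted p under 0.05, 2 were lower (8.72% of all genes) and 1 higher (7.85%). Dgat2, which makes triglyceride, was at 1871 to 2335 CPM among controls and 1319 to 1785 among knockouts (-0.42). Lpin1, a phosphatidate phosphatase, was at 621 to 730 CPM and 455 to 609 CPM (-0.35). Gpam had the opposite sign (0.39, and 0.24 to 0.54 over the alternative settings). Lipolysis genes had a median of -0.02. Hcar1, the lactate receptor that restrains lipolysis, was at 70.6, 70.9 and 106 CPM in controls 131, 137 and 11 and at 122, 118, 118 and 133 CPM in knockouts 139, 958, 960 and 29 (0.58, edgeR adjusted p = 0.167). The neighbouring Hcar2, a receptor for ketone bodies, was at 15.9 to 20.8 CPM among controls and 22.4 to 29.8 among knockouts (0.47), and Adrb3, the adrenergic receptor of fat cells, was at 292 to 387 CPM and 391 to 486 CPM (0.38). Of the 15 lipolysis genes these 3 were higher in knockouts without overlap of the groups (7.72% of all genes), while 9 of the 15 had a negative log2 fold change.

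Of 18 genes of insulin signalling and glucose handling, 4 had higher levels in knockouts at an unadjusted p under 0.05 (7.85% of all genes). Without control 131 the count was 1, where 8.98% of all genes reached that level in either direction. Irs1, the docking protein of the insulin receptor, was at 165, 149 and 184 CPM in controls 131, 137 and 11 and at 216, 251, 204 and 268 CPM in knockouts 139, 958, 960 and 29 (log2 fold change 0.50, edgeR adjusted p = 0.148). Pik3r1 (0.39), Igf1 (0.29) and Insr (0.22) were the others, and the median of the 18 genes was 0.01. Esr1, the oestrogen receptor alpha, was at 120, 139 and 147 CPM in controls and 155, 188, 220 and 169 CPM in knockouts (0.43, edgeR adjusted p = 0.184). Every knockout lay above every control. Hsd17b12, an oxidoreductase of steroids and long fatty acids, had the opposite sign (-0.31).

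The pathway in which MyD88 acts was described from a list. Of 33 listed receptors, adaptors, kinases and ligands of Toll-like and interleukin-1 signalling, 29 passed the filter and 1 had an unadjusted p under 0.05, where 16.6% of all genes did. That gene, Tlr13, an endosomal receptor for bacterial RNA, was at 3.66 to 6.56 CPM among controls and 2.77 to 3.89 among knockouts (log2 fold change -0.54, edgeR adjusted p = 0.286). Traf6 (0.17) and Irak1 (-0.14), the ligase and kinase downstream of MyD88, had small differences of opposite sign. The median was -0.02.

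Interferon-stimulated genes other than the GTPases had a median of -0.13, with 19 of 23 negative. At an unadjusted p under 0.05, 1 was lower (8.72% of all genes) and 1 higher (7.85%). Negative members were 13 without control 11 or without knockout 960, with medians of -0.03 and -0.04. Without control 131 the median was -0.34 and 4 were lower at that level, which 8.98% of all genes reached in either direction. Isg15, a ubiquitin-like modifier, was at 2.08 to 2.57 CPM among controls and 1.03 to 1.91 among knockouts (-0.75, edgeR adjusted p = 0.224), and Cxcl9, a T cell chemokine, was at 10.5 to 23.1 CPM and 22.2 to 28.6 CPM (0.58, edgeR adjusted p = 0.285). Of 18 tested chemokines and receptors, 3 had an unadjusted p under 0.05 with lower (8.72% of all genes) and 2 with higher levels in knockouts (7.85%), and the median was -0.40. With 1 of the libraries left out these counts reached 5 lower, without control 137 or knockout 958, and 0 higher, without control 131. In those settings 11.7%, 14.55% and 8.98% of all genes had an unadjusted p under 0.05 in either direction. Ccl2, which recruits monocytes, was at 5.44, 4.80 and 5.72 CPM in controls and 2.63, 4.17, 1.03 and 1.91 CPM in knockouts, without overlap (-1.14, edgeR adjusted p = 0.220). Cxcl12, a chemokine made by stromal cells, was at 96.8 to 133 CPM among controls and 132.6 to 159.5 among knockouts (0.38), and Cxcr4, its receptor, was at 5.85 to 8.99 CPM and 4.22 to 6.08 CPM (-0.66).

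Stress-response lists were mixed. Mt2 and Mt1, metallothioneins that bind zinc and are induced by glucocorticoids, were at 16.8 to 22.2 and 61.1 to 75.4 CPM in controls and at 5.86 to 12.8 and 35.6 to 58.2 CPM in knockouts, without overlap (log2 fold changes -1.17 and -0.71, edgeR adjusted p = 0.153 and 0.174). With Tsc22d3 they were the 3 of 14 glucocorticoid response genes that DESeq2 called, all lower (1.25% of all genes), and the list median was -0.13, but 0.04 without knockout 139. Hmox1, which breaks down haem, was at 24.7, 22.8 and 19.6 CPM in controls and 11.6, 15.4, 14.6 and 18.0 CPM in knockouts (-0.58, edgeR adjusted p = 0.161). Sod2 (-0.27), Prdx6 (-0.61) and Prdx5 (-0.28), which clear reactive oxygen, were among 6 of 19 antioxidant genes with lower levels at an unadjusted p under 0.05 (8.72% of all genes), beside 1 with higher levels, and the median was -0.14. With control 138 added the count of lower members was 1, where 4.10% of all genes were lower at that level.

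Markers of several other cell types had lower means in knockouts, and those of some others had higher ones. All 5 tested of 7 erythroid genes had a negative log2 fold change and an unadjusted p under 0.05 (8.72% of all genes), with a median of -1.04 and no member at 0 in all libraries. Their sum was 333, 287 and 124 CPM in controls 131, 137 and 11 and 99.1, 179, 103 and 100.0 CPM in knockouts 139, 958, 960 and 29, so control 11 lay inside the knockout range. Without control 131 or control 137 the count was 1, where 8.98% and 11.7% of all genes reached that level in either direction. Without knockout 139, 960 or 29 it was 2, beside 15.4%, 13.1% and 17.7% of all genes. Hba-a2 shares 89.1% of its 51-base stretches with Hba-a1, and Hbb-bt 58.2% with Hbb-bs, so the split of reads between these copies is uncertain. All 14 macrophage markers had a negative log2 fold change, with a median of -0.30 and none at an unadjusted p under 0.05. Their sum was 1120.1, 969 and 1299.5 CPM in controls and 702, 1209.6, 703 and 1119 CPM in knockouts, so the groups overlapped. No macrophage marker was at 0 in all libraries. Of 7 tested plasma cell genes, 4 had lower levels at an unadjusted p under 0.05 (8.72% of all genes), among them Igha (-0.88) and Igkc (-1.15). Xbp1, the transcription factor of secretory cells, had a higher level (0.43). The count of 4 was 1 without control 131, control 11, knockout 139, knockout 958 or knockout 29. In those settings 8.98%, 17.4%, 15.4%, 14.55% and 17.7% of all genes had an unadjusted p under 0.05 in either direction. It was 0 with control 138 added, where 4.10% of all genes were lower at that level. The plasma cell genes summed to 316 to 394 CPM among controls and 269 to 340 among knockouts, so the groups overlapped. Other lists leaned the other way. Dendritic cell markers summed to 49.9 to 56.7 CPM among controls and 58.2 to 62.7 among knockouts, without overlap. Of 7 tested, 5 had a positive log2 fold change and none an unadjusted p under 0.05. Of 12 endothelial markers 8 were positive, 3 of them at that level (7.85% of all genes), beside 1 lower (8.72%). Of 6 tested mast cell markers 4 were positive and none reached that level.

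Skeletal muscle markers differed widely between mice in both groups. The 10 skeletal muscle markers summed to 4194, 1660.1 and 4229 CPM in controls 131, 137 and 11 and to 17525, 4608, 1241 and 9481 CPM in knockouts 139, 958, 960 and 29. All 10 had a positive log2 fold change, with a median of 0.99 and none at an unadjusted p under 0.05. Ribosomal and other abundant noncoding RNA summed to 91385 CPM in control 131 and to 46860 to 70127 CPM in the other 6 libraries. The part of the erythroid, macrophage, muscle and noncoding RNA content in the cell division, histone and matrix values was not tested.

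**Figure D5:**
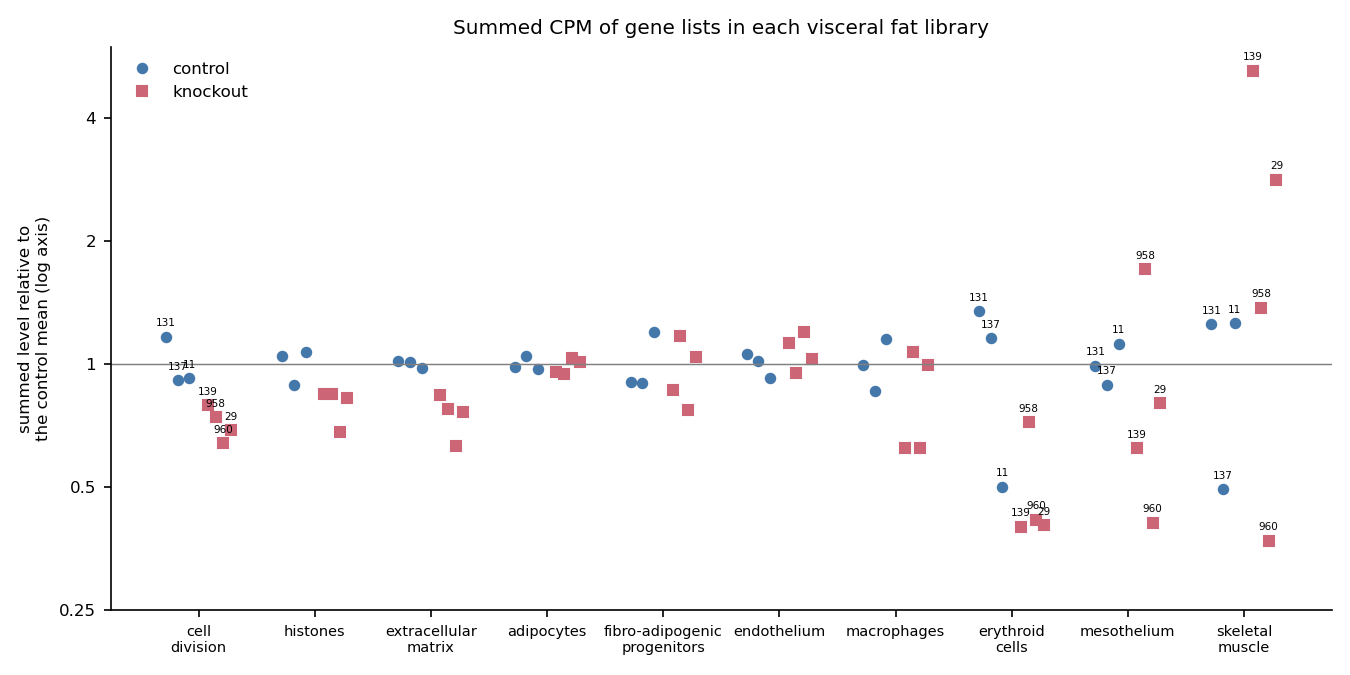
Summed CPM of 10 gene lists in each fat library, divided by the control mean, on a log axis; circles are the 3 controls and squares the 4 knockouts, with mouse numbers where libraries spread widely. Knockouts lie under all controls for cell division, histones and extracellular matrix, while the groups overlap for the other 7 lists.

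Genes near the targeted locus were also described. Within 10 Mb of Myd88, 141 other genes were tested. Stt3b, 4025513 bases away, was the 1 gene called. Unadjusted p was under 0.05 for 7.80% with higher and 6.38% with lower levels (11 and 9 genes), beside 7.85% and 8.72% of all genes, and the median log2 fold change was 0.02.

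The genotype difference itself was compared between fat and muscle of the same mice. Among 17489 genes tested, 3 (0.0172%) differed in their fold change by the edgeR interaction test. Stt3b differed by -0.66 (SE 0.11, adjusted p = 0.0430) and Filip1, a filamin A-interacting protein, by 0.77 (SE 0.12, adjusted p = 0.0430). Camk2b, a subunit of the calcium-dependent kinase CaMKII, differed by 1.36 (SE 0.20, adjusted p = 0.0369). Camk2b was at 2.35 ± 0.497 CPM (SD, n = 3) in control fat and 5.58 ± 0.622 CPM (SD, n = 4) in knockout fat, beside 78.4 ± 6.34 and 72.1 ± 10.4 CPM in muscle (SD, n = 4 each). Filip1 was at 22 ± 1.13 and 31.6 ± 2.07 CPM in control and knockout fat and at 160 ± 17.8 and 133 ± 7.89 CPM in muscle. Both were at higher levels in muscle than in fat, and the skeletal muscle content of the fat libraries given above was not tested as part of their values.

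With the mouse as a block, which uses the pairing of the tissues within an animal, 7 genes (0.04%) differed. They were Vcan, Fstl1, Lox, Fbn1, Lhfpl2, Cavin4 and Camk2b, each with adjusted p = 0.0414, and Stt3b was then at 0.0936 and Filip1 at 0.0971. Cavin4, a caveola protein of muscle cells, was at 1.34 ± 0.161 and 3.33 ± 0.771 CPM in control and knockout fat and at 90.7 ± 9.24 and 88.9 ± 7.49 CPM in muscle; the part of skeletal muscle content in its fat values was not tested. Fbn1, fibrillin 1 of elastic microfibrils, was at 1018 ± 102 CPM (SD, n = 3) in control fat and 551 ± 164 CPM (SD, n = 4) in knockout fat, and at 87.4 ± 21.3 and 103 ± 21.8 CPM in muscle. Vcan, the proteoglycan versican, was at 86.8 ± 14.1 and 55.1 ± 15.8 CPM in fat and at 10.8 ± 1.75 and 11.6 ± 3.67 CPM in muscle. Of these 7, Vcan, Fstl1, Lox, Fbn1 and Lhfpl2 had a log2 fold change in fat below that in muscle and the other 2 one above it. In the unblocked test, where 11.1% of genes had an unadjusted p under 0.05 and DESeq2 called 129, the count was 0 with control 138 added to the fat libraries. It was also 0 with mouse 131, 137, 958, 960 or 29 left out of both tissues, or mouse 138 left out of muscle.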

How the data were processed

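RNA of visceral fat and red gastrocnemius muscle was sequenced after ribosomal RNA depletion with a stranded kit, per the labels' protocols. The authors deposited a table of raw counts per gene. The submitters' processing notes name STAR 2.7.0f, featureCounts 1.6.3, DESeq2 1.22.2 and GRCm38, and the annotation release, strand setting and treatment of multimapping reads are details the sources used here do not give. All 55536 gene identifiers matched GENCODE M21, of which 21934 had no count.

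Genotypes in fat were compared in R 4.3.3 with edgeR 4.0.16 (quasi-likelihood F test, TMM scaling, filterByExpr, robust estimation, p adjusted by Benjamini-Hochberg across every gene tested, threshold 0.05), with limma 3.58.1 voom and DESeq2 1.42.0 as alternatives. Standard errors were obtained from the fold change and F (log2 size over root F). Levels are TMM-scaled CPM, and total-count CPM where the library of control 138 is compared. The summed adipocyte level was compared as log2(CPM + 0.5), as a description. The interaction test used 15 libraries. Fat and muscle carry the same mouse numbers, which name the animal, and their deviations correlated at -0.03 to 0.13 over 13651 genes. Same-group fat libraries differed beyond sampling noise (chi-square per degree of freedom 14.8 to 50.5), so each counted as 1 replicate. The labels name no batch. The fit was also run on simulated counts with planted log2 changes of at least 1 in size, which do not bear on smaller changes.

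The members and lists were chosen with earlier results of these data known. Named genes were Myd88, every called gene, the next genes by p with at least 1 CPM in 1 genotype up to 24, up to 4 members of smallest p per described list, and tissue markers; clone names were left out, and 1 further gene is not reported here. Gene copies, overlapping genes and those called in the blocked interaction were named after their values were seen. Shared sequence was counted over 51-base stretches of GENCODE transcripts, and promoters are from RefSeq (GRCm38.p6). Alternatives were other scalings, filters and tools, leaving out each library and adding control 138.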

Additional observations from a re-analysis of the deposited data

Results flagged for a closer look

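In groups of 4 knockouts, 4 values lay apart from the other 3 by more than Dixon's 95% critical value. Chance flags about 1 in 20 groups, and 47 were examined. Knockout 958 had the lowest level of Tsc22d3, at 94.9 CPM, and knockout 960 the highest of AU020206, at 19.8 CPM. Knockout 960 had the lowest summed histone level, at 264 CPM, and knockout 958 the highest summed erythroid level, at 179 CPM.

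The genotype difference in fat minus that in muscle passed the edgeR interaction test without a mouse block for Stt3b (-0.66), Camk2b (1.36) and Filip1 (0.77). With the mouse as a block, Camk2b passed (edgeR adjusted p = 0.0414). Stt3b and Filip1 did not (edgeR adjusted p = 0.0936 and 0.0971). For Stt3b the mean was lower in knockouts in both tissues, while for Camk2b and Filip1 it was higher in fat and lower in muscle.

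In the fat library of control 138, which the main comparison does not use, 8 urothelium markers summed to 1775 CPM of the total count, where the other 7 fat libraries had 5.44 to 15.6 CPM. The 10 smooth muscle markers summed to 27425 CPM there, where the others had 913 to 1572 CPM.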

How the results depend on the processing

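The count of 6 genes changed in fat was 1 with control 138 added and 72 with it added under DESeq2. It was 161 with no filter on low counts, 348 with DESeq2, 10 with limma voom and quality weights, 3 with non-robust estimation and 65 in a fit of all 15 libraries. At adjusted p thresholds of 0.01 and 0.1 it was 2 and 13, and leaving out 1 library at a time gave 1 to 29. For genes differing between tissues the count of 3 became 7 with the mouse as a block, 0 with control 138 added, 129 with DESeq2, 8 with no filter and 0 to 4 with 1 mouse left out. The difference in the summed adipocyte level, -0.02 on the log2 scale, became 0.55 with control 138 added and 0.032 with total count scaling and ranged from -0.047 (without knockout 960) to 0.010 (without control 137) with 1 library left out. With control 138 added, and with it added under DESeq2, the sign reversed for Filip1 (-0.39 and -0.40), for the medians of adipocyte markers (0.25 and 0.24), lipid droplet proteins (0.083 and 0.074), fatty acid uptake (0.20 and 0.19), lipogenesis (0.33 and 0.32), lipolysis (0.24 and 0.23) and sex steroid genes (-0.045 and -0.053; -0.20 to 0.43 with 1 library left out, lowest without knockout 29), and with it added for Ikzf2 (-0.51). Of 472 refitted fold changes of 25 named genes, 372 kept sign and side of the threshold, 64 became called, 33 lost the call and 3 reversed; of 418 list medians, 389 stayed within the spread. Genes with an unadjusted p under 0.05 were 1301 higher and 1445 lower, 1634 and 728 with total count scaling and 1580 and 1159 with upper quartile scaling. The cause of these shifts was not tested. Genes at a few counts per library, such as Tgtp1 in knockouts, are limited by depth.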

Other observations

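Lists not described above held further differences in one direction. Of 19 tested cholesterol synthesis genes 18 had a negative log2 fold change in knockouts, with a median of -0.44. Of these, 2 were at an unadjusted p under 0.05 (8.72% of all genes). Their summed level was 2243, 1245.6 and 1122.5 CPM in controls 131, 137 and 11 and 1528, 1005, 939 and 894 CPM in knockouts 139, 958, 960 and 29, so control 131 stood highest and the groups overlapped. Of 30 nuclear-encoded respiratory chain genes 28 had a negative log2 fold change, with a median of -0.08 and 1 lower at an unadjusted p under 0.05 (8.72% of all genes). Of 17 circadian clock genes 14 had a positive log2 fold change, with a median of 0.16 and none at that level. The 6 liver markers, secreted or made mainly by hepatocytes, summed to 78.6 to 264 CPM among controls and 47.0 to 498 among knockouts.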
